A study of Homo sapiens with 2 samples.

Results

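The ZNF genes are the largest named group of human zinc finger genes, and 286 of them were expressed in HSC-3 cells, an established line of human tongue squamous carcinoma. Members were selected on 1 of the deposited values: a gene symbol made of ZNF and digits only, and a level of at least 2 TPM, a length-corrected share of all transcripts, in the library of cells given DMSO. Of 479 such rows among 60616 in the table, 286 passed and 193 did not, and 80 rows held 0 expected counts with both treatments. The 1 gene that the definition left out by name was below the minimum in any case. The series holds 1 library of HSC-3 cells given 0.1% DMSO, the solvent, and 1 library of HSC-3 cells given 1 µM FIN56, a compound that induces ferroptosis, for 48 h. The labels give no time for the DMSO library. The libraries held 70184517 expected counts with DMSO and 73062209 with FIN56. With 1 library per condition, no spread between replicates could be measured and no test was made. In these bulk libraries, a change in every cell and a change in the share of cells that survive or express a gene cannot be told apart.

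Most proteins of this family carry a row of C2H2 fingers, short loops held by a zinc ion, and each finger can read a few bases of DNA. Many also carry a KRAB domain, which recruits the corepressor TRIM28 and with it enzymes that set repressive histone marks, above all on transposable elements. Others carry a SCAN domain, through which they pair, and a minority bind RNA or proteins and serve in ribosome assembly, translation or mitosis. Human KRAB zinc finger genes arose largely by tandem duplication and lie in clusters, most of them on chromosome 19.

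The cells carried the markers of squamous carcinoma. KRT5, a basal keratin, stood at 3109 TPM with DMSO and 2517 TPM with FIN56, and KRT14, its partner, at 2109 and 2066 TPM. TP63, the basal squamous transcription factor, stood at 128 and 142 TPM. All 8 squamous markers were present in both libraries, with a summed level of 6970 TPM with DMSO and 6740 TPM with FIN56. By counts 6 of the 8 were above a ratio of 1, with a median log2 count ratio of 0.15, and KRT5 and KRT14 were below. Of 16 markers of leukocytes, endothelium and fibroblasts, 13 were below 1 TPM in both libraries, and CD3E, CD2, MS4A1 and PTPRC, which mark T cells, B cells and all leukocytes, were at 0 counts in both. The summed level of the 16 was 98.36 TPM with DMSO and 50.04 TPM with FIN56. CD68, a lysosomal protein that many cell types make, was the most abundant of the 16, with 85.7 TPM with DMSO and 37.6 TPM with FIN56. Among 3 mesenchymal genes, VIM stood at 391 TPM with DMSO and 259 TPM with FIN56, FN1 at 24.7 and 18.8 TPM, and CDH2 at 6.47 and 7.34 TPM. The part of these differences in the ZNF values was not tested.

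The members covered a wide range of levels. With DMSO, their expected counts ran from 102 to 17884 with a median of 864, and their levels from 2.01 to 149.98 TPM with a median of 6.42 TPM. With FIN56, the levels ran from 1.46 to 179 TPM with a median of 6.91 TPM. The least covered member still had 282 counts when the libraries were added, so the minimum of 100 counts for naming a gene removed none. Just inside the level that chose the members were ZNF239 at 2.01 TPM, ZNF774 and ZNF383 at 2.04 TPM and ZNF230 at 2.07 TPM with DMSO. Just outside it were ZNF852 at 1.98 TPM, ZNF124 at 1.94 TPM, ZNF747 at 1.92 TPM and ZNF391 at 1.87 TPM. With FIN56, 277 of the members were still at 2 TPM or more, and 16 ZNF rows below that level with DMSO had reached it.

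The ZNF genes were, on balance, more abundant in the FIN56 library. The expected count ratio, each count divided by its library total and FIN56 taken over DMSO, was 1.5 or more in 20 members, or 6.99%, beside 2.82% of the 12444 genes with a DMSO level of 2 TPM or more. It was 1/1.5 or less in 7 members, or 2.45%, beside 8.56% of those genes. The median log2 count ratio of the members was 0.15, with quartiles of -0.10 and 0.35, and that of all 12444 genes was -0.0006, with quartiles of -0.25 and 0.19. In 189 members the ratio was above 1, and in 97 below. Together the members held 398923 expected counts with DMSO and 447921 with FIN56, which is 0.568% and 0.613% of the libraries. The DMSO value both chose the members and divides each ratio, so these figures describe the members and support nothing beyond that.

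The TPM, which also divides by an effective transcript length estimated in each library, gave a like picture. The TPM ratio was 1.5 or more in 29 members, or 10.1%, beside 4.11% of all genes, and 1/1.5 or less in 10 members, or 3.50%, beside 7.58%. The median log2 TPM ratio was 0.17 for the members and 0.049 for all genes. The members summed to 3048 TPM with DMSO and 3391 TPM with FIN56. Of the 29 members past the threshold by TPM, 13 were also past it by counts, and of the 10 on the lower side, 5 were. This overlap is given for the members alone and is no comparison with all genes.

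**Figure D1:**
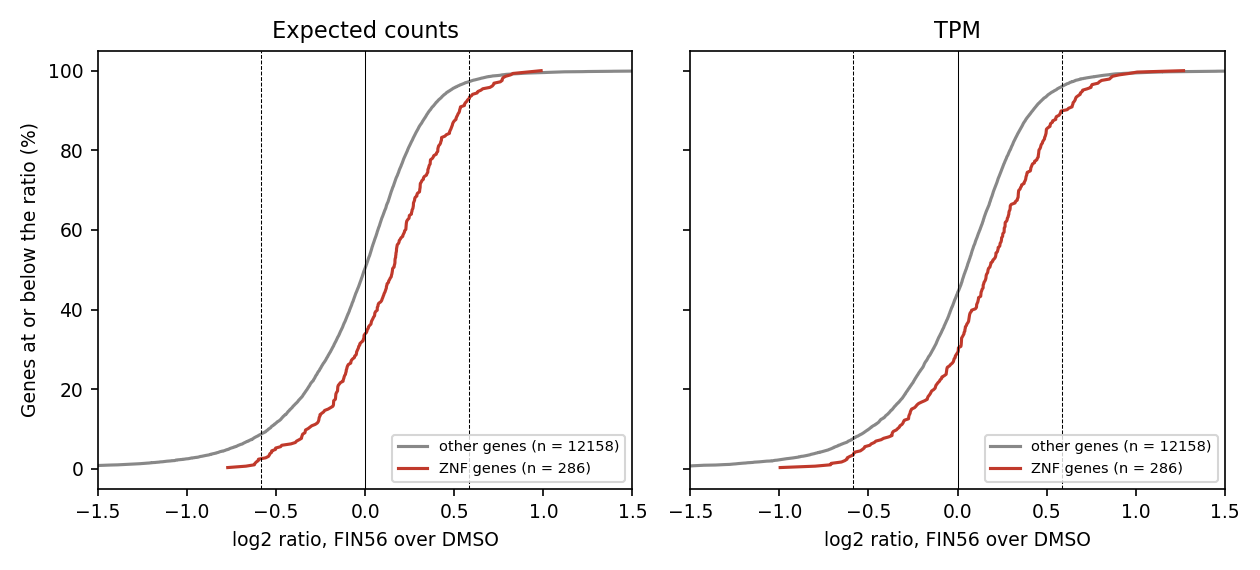
Cumulative share of genes (%) against the log2 ratio of FIN56 over DMSO, by expected counts at left and by TPM at right, for the 286 ZNF genes and the other 12158 genes with a DMSO level of 2 TPM or more. Dashed lines mark ratios of 1.5 and 1/1.5, and the ZNF curve lies to the right of the other genes through the middle of both plots, with medians of 0.15 and 0.17.

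Counting error was small for most members. An exact Clopper-Pearson interval at the 95% level, which covers counting error only, lay wholly above a ratio of 1 in 152 members, or 53.1%, beside 37.7% of all genes. It lay wholly below 1 in 57 members, or 19.9%, beside 37.5% of all genes. Copies of a molecule made by PCR were not marked in these reads and count more than once, and variation between cultures is not in these intervals.

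The member with the highest count ratio was ZNF223, a KRAB gene on chromosome 19. It had 170.25 expected counts with DMSO and 351 with FIN56, a ratio of 1.98 with an interval of 1.65 to 2.40. ZNF23, a KRAB gene with 16 fingers on chromosome 16, had 721 and 1411 counts, a ratio of 1.88 with an interval of 1.72 to 2.06. These 2 genes differed little from each other beside their intervals. ZNF845, with 26 fingers, had 961 counts with DMSO and 1777 with FIN56, a ratio of 1.78. ZNF816 had 326 and 598 counts, a ratio of 1.76. ZNF525 had 551 and 991 counts, a ratio of 1.73. These last 3 are KRAB genes that lie within 1 stretch of chromosome 19.

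The next members in the order stood between ratios of 1.71 and 1.64. ZNF239, which holds no KRAB motif, had 182 counts with DMSO and 324 with FIN56, and ZNF84, on chromosome 12, had 1204 and 2137 counts. ZNF20 had 102 and 181 counts, and its interval ran from 1.33 to 2.20. ZNF28 had 1201 and 2115 counts, and ZNF577 had 134 and 231. The list closed with ZNF613, at 242 and 415 counts, and ZNF226, at 611 and 1043 counts. By TPM, 8 of these 12 genes were at 1.5 or more. The other 4 were ZNF525, with a TPM ratio of 1.45, ZNF28, with 1.37, ZNF20, with 1.23, and ZNF577, which turned to 0.986. Of the 12, 11 held a KRAB motif and 9 lay on chromosome 19, beside 157 and 111 of all 286 members.

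The lowest count ratio belonged to ZNF771, on chromosome 16, with 351 expected counts with DMSO and 214 with FIN56. Its ratio was 0.586 with an interval of 0.492 to 0.696. ZNF821 had 195 and 128 counts, a ratio of 0.629. ZNF302, a KRAB gene on chromosome 19, had 886 and 599.6 counts, a ratio of 0.650. The ratios of ZNF691, with 637 and 432 counts, ZNF414, with 308 and 210, ZNF772, with 412 and 283, and ZNF653, with 192 and 132, lay between 0.652 and 0.660. ZNF572, at 348 and 246 counts, ZNF548, at 1418 and 1013, and ZNF417, at 616 and 442, stayed above the threshold of 1/1.5. So did ZNF594, at 1028 and 739 counts, and ZNF511, at 1899 and 1375. By TPM, 5 of the 7 genes at 1/1.5 or less by counts were still there. ZNF302 had a TPM ratio of 0.715 and ZNF772, just short of the threshold, 0.6697. ZNF548, above the threshold by counts, was past it by TPM, with a ratio of 0.6115. Of these 12 genes, 4 held a KRAB motif and 6 lay on chromosome 19, beside 157 and 111 of all 286 members. The difference between the 2 ends was not tested.

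**Figure D2:**
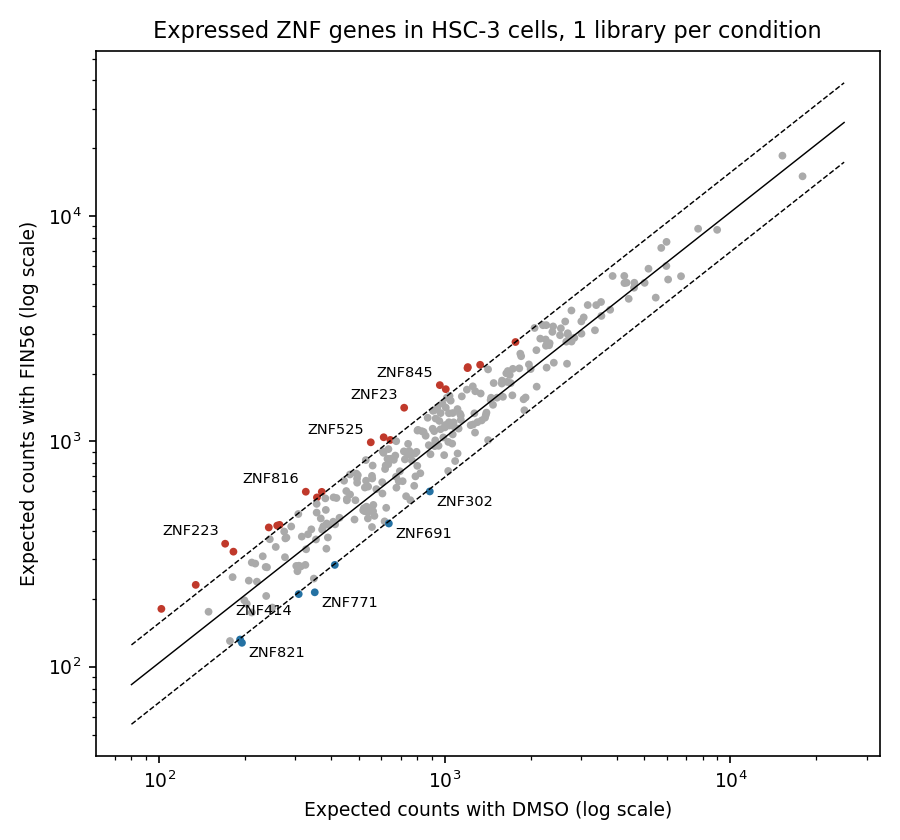
Expected counts of the 286 ZNF genes with FIN56 (vertical, log scale) against DMSO (horizontal, log scale), 1 point per gene and 1 library per condition. The solid line is equal abundance after division by library totals and the dashed lines are ratios of 1.5 and 1/1.5, with 20 genes (red) at or above the upper line and 7 (blue) at or below the lower line.

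The 5 most abundant members by mean TPM differed in their ratios. ZNF207, also called BuGZ, which binds microtubules and loads a checkpoint protein at kinetochores, stood at 141 TPM with DMSO and 179 TPM with FIN56, a ratio of 1.27. ZNF706 stood at 149.98 and 157 TPM. ZNF664 stood at 92.9 and 77.3 TPM, and its count ratio was 0.807. ZNF410, an activator of the CHD4 gene, stood at 64.7 and 81.8 TPM. ZNF638, an RNA-binding nuclear protein, stood at 58.5 and 65.2 TPM, while its counts were 8984 with DMSO and 8690 with FIN56, so its ratio was above 1 by TPM and below 1 by counts.

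Of the members listed for RNA, ribosome and spindle functions, 11 were expressed, with 445 TPM in sum with DMSO and 533 TPM with FIN56. Their median log2 count ratio was 0.13, and none reached 1.5 or 1/1.5, as is the case for most genes. ZNF451, a SUMO ligase, stood highest of these by ratio, with 3868 counts with DMSO and 5421 with FIN56, a ratio of 1.35. ZNF622, a factor of the large ribosomal subunit, had 2640 counts with DMSO and 3405 with FIN56, a ratio of 1.24. ZNF598, the ligase that marks collided ribosomes, had 3524 and 4156 counts, a ratio of 1.13. ZNF346, which binds double-stranded RNA, had 1383 and 1274 counts, a ratio of 0.885. In this list 7 intervals lay above 1 and 2 below, beside 37.7% and 37.5% of all genes.

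All 17 members listed for chromatin and promoter functions were expressed, with a median log2 count ratio of 0.16. None of the 17 reached a ratio of 1.5 or 1/1.5, which 2.82% and 8.56% of all genes did. In 12 the interval lay above 1 and in 2 below, beside 37.7% and 37.5% of all genes. ZNF143, which binds the promoters of many housekeeping genes, had 1970 counts with DMSO and 2196 with FIN56, a ratio of 1.07. ZNF503 had 1851 and 2388 counts, a ratio of 1.24. ZNF687 had 2549 and 3176 counts, a ratio of 1.20, whereas ZNF532, which joins it in a complex with ZNF592, had 2097 and 1749 counts, a ratio of 0.801. ZNF592 itself had 2841 and 2882 counts. The members of that complex therefore lay on both sides of 1.

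Of 7 KRAB genes listed for binding to known transposable elements, 5 were expressed at 2 TPM or more. ZNF765 had 635 counts with DMSO and 924 with FIN56, a ratio of 1.40, and ZNF10 had 843 and 1101 counts, a ratio of 1.255. ZNF649 had 305 and 265 counts, a ratio of 0.836, and ZNF141 had 995 and 869 counts, a ratio of 0.839. ZNF274 had 1475 and 1453 counts. ZNF91, which silences SVA elements, was close to absent at 0.26 and 0.36 TPM, and ZNF93, which silences L1 elements, had 0 counts in both libraries. The expressed genes of this list did not share a direction, and their median log2 count ratio was -0.080.

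The proteins of the canonical transcripts were translated and searched for domains. A KRAB motif was found in 157 members, a SCAN motif in 18, both in 4 and neither in 115. The median log2 count ratio was 0.23 for the members with a KRAB motif and 0.068 for the 129 without. Of the 20 members at 1.5 or more, 17 held a KRAB motif, and of the 7 at 1/1.5 or less, 2 did. The 14 members with a SCAN motif alone had a median of 0.0016, too near 0 to give a direction, and 0.086 by TPM. The motif search is imperfect, and a domain that differs from the searched pattern is missed.

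The number of C2H2 fingers ran from 0 in 7 members to 36 in ZNF142, with a median of 10. The median log2 count ratio was -0.012 in the 49 members with 0 to 4 fingers, 0.14 in the 90 with 5 to 9, 0.17 in the 93 with 10 to 14 and 0.22 in the 54 with 15 or more. By TPM the first of these turned to 0.11, and the others were 0.14, 0.23 and 0.27. Of those 54, 48 had a count ratio above 1, beside 189 of all 286 members and 6213 of all 12444 genes. None of the 54 was at 1/1.5 or less, beside 2.45% of all members and 8.56% of all genes. Members with a KRAB motif had a median of 11 fingers and those without had 7, so the 2 features overlap. Crossed after the values had been seen, the median log2 count ratio of members with 5 to 9 fingers was 0.24 in 42 with a KRAB motif and 0.068 in 48 without, and with 10 to 14 fingers 0.22 in 65 and 0.023 in 28. With 15 or more fingers it was 0.23 in 41 members with a KRAB motif and 0.21 in 13 without, a small group. With 0 to 4 fingers it was 0.10 in 9 with the motif and -0.021 in 40 without, and the latter turned to 0.096 by TPM.

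**Figure D3:**
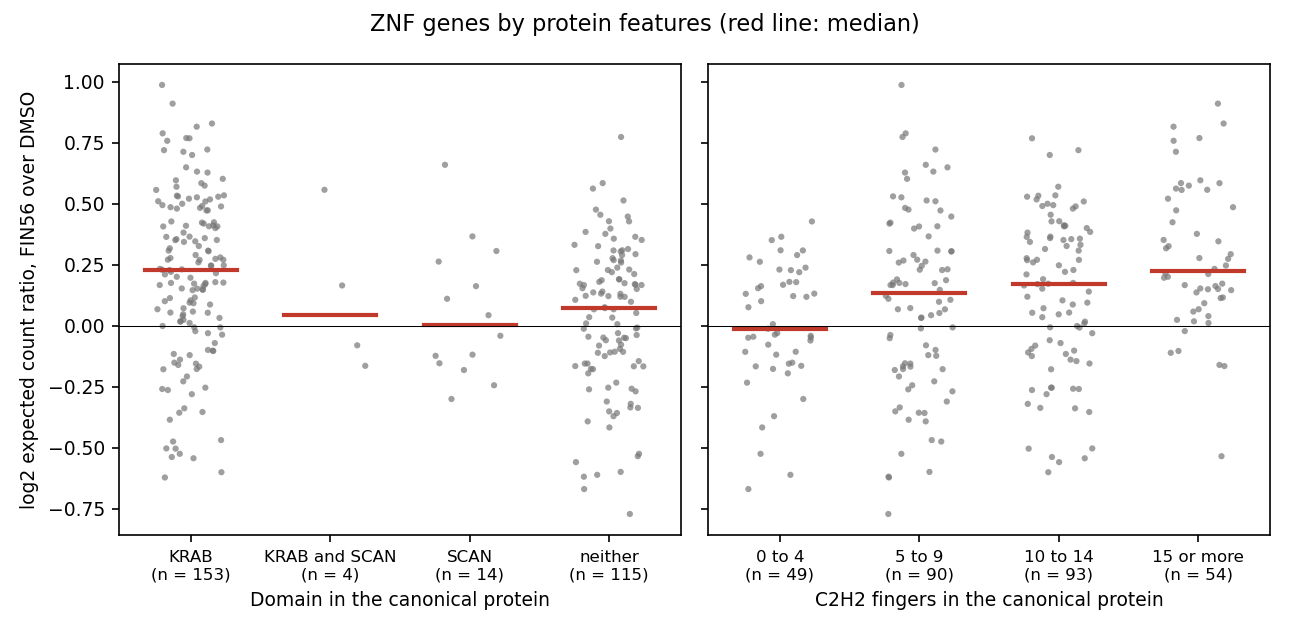
Log2 expected count ratio, FIN56 over DMSO, of the 286 ZNF genes by the domain motif found in the canonical protein (left) and by its number of C2H2 fingers (right), 1 point per gene with horizontal scatter for legibility. Red lines are medians, at 0.23 for KRAB alone and 0.073 for neither domain, and from -0.012 at 0 to 4 fingers (0.11 by TPM) to 0.22 at 15 or more.

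Base composition and level also moved with the ratio. The median GC content of the members' canonical transcripts was 44.6%, and that of the 12426 genes with an annotated transcript was 48.2%. The genes were divided by GC content into 4 groups of equal size. In the group with the lowest, up to 41.9%, the median log2 count ratio was 0.22 for 88 members and 0.065 for the other genes. In the group with the highest, above 56.3%, it was 0.10 for 57 members and -0.097 for the other genes. The members' median was above that of the other genes in each group, and for both it was lower in the GC-rich groups than in the group with the lowest GC content. Within the lowest group, 58 members with a KRAB motif had a median of 0.30 and 30 without had 0.12. In the next group, 69 with a KRAB motif had 0.17 and 28 without had 0.12. In the third, 18 with the motif had 0.13 and 26 without had 0.0070. Within the highest, 12 with a KRAB motif had a median of 0.27 and 45 without had 0.010.

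By level, the 113 members between 2 and 5 TPM with DMSO had a median log2 count ratio of 0.21, beside -0.075 for the other genes in that band. The 30 members at 20 TPM or more had 0.12, beside 0.0075 for the others. All 20 members past 1.5 lay below 20 TPM with DMSO, and 12 of them lay below 5 TPM. The part of GC content and level in the ratios was not tested.

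The members also differed by position. Chromosome 19 held 111 members with a median log2 count ratio of 0.21, and the other chromosomes held 175 with a median of 0.12. The 667 other expressed genes of chromosome 19 had a median of -0.07. Members were then joined into runs wherever neighbours lay no more than 1 Mb apart on GRCh38, a division chosen after the values had been seen. It gave 7 runs of at least 8 members, 6 of them on chromosome 19, with 105 members in all.

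The run from ZNF175 to ZNF761, at chr19:51571283-53461862, had the highest median over all its members. All 24 of its members held a KRAB motif. Together they had 16198 expected counts with DMSO and 23609 with FIN56. Their median log2 count ratio was 0.49, 23 of 24 were above 0, and 7 were at 1.5 or more, beside 6.99% of all members and 2.82% of all genes. ZNF649, with 305 counts with DMSO and 265 with FIN56, was the exception. The other 6 expressed genes in the same interval had a median of -0.058, 2 above 0 and 4 below, with 1 at 1.5 or more and 1 at 1/1.5 or less. By TPM, 21 of the 24 members were above a ratio of 1 and the median log2 ratio was 0.47.

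In this run, 8 members had whole expected counts in both libraries, as a gene has where no read is divided between it and genes of like sequence. These 8 had a median log2 count ratio of 0.36, below the 0.45 of the 6 such members of the run from ZNF653 to ZNF791. The highest of the 8, ZNF613, had 242 counts with DMSO and 415 with FIN56, and ZNF480 had 1008 and 1705. The lowest, ZNF615, had 372 and 406 counts, and ZNF614 had 879 and 962, with intervals that include a ratio of 1. In the other members some reads were divided with other genes, which the files do not name.

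The run from ZNF576 to ZNF180, at chr19:43596392-44500524, held 14 members, and all 14 had a ratio above 1 by counts and by TPM. In 10 of the 14 the interval lay wholly above 1, beside 53.1% of all members and 37.7% of all genes. They had 6638 counts with DMSO and 9114 with FIN56 in sum, with a median log2 count ratio of 0.35. Their values ran from 0.040 in ZNF283, with 428 and 458 counts, to 0.99 in ZNF223. ZNF224, which represses the aldolase A gene, had 1049 counts with DMSO and 1516 with FIN56. The other 4 expressed genes in the interval had a median of 0.30 and 3 of them were above 0, so the neighbours of this run stood at a like value.

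The run from ZNF653 to ZNF791, at chr19:11483427-12633840, held 9 members with a median log2 count ratio of 0.41. Of these, 8 were above 0. ZNF653, a gene without a KRAB motif at the edge of the run, was the exception, with 192 counts with DMSO and 132 with FIN56. The run from ZNF414 to ZNF562 was divided, with 5 of 9 members above 0. On chromosome 16, the run from ZNF48 to ZNF267 held 12 members with a median of 0.15, and 29 other expressed genes in that interval had a median of -0.14. It held both ZNF629, at a log2 count ratio of 0.59, and ZNF771, the lowest of all members by counts. By TPM the lowest of all members was ZNF653, with a ratio of 0.502.

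Toward the end of chromosome 19 the pattern was different. The run from ZNF628 to ZNF444, at chr19:55476617-56160893, held 9 members, none with a KRAB motif, and their transcripts had a median GC content of 69.1%. Their median log2 count ratio was -0.12, and 8 of 9 were below 0. In 3 of the 9 the interval lay below a ratio of 1, beside 37.5% of all genes. By TPM, 6 of 9 were below 0 and the median was -0.090. Their sums were close, with 9634 counts with DMSO and 9610 with FIN56. In the last run, from ZNF264 to ZNF446, at chr19:57191500-58481230, 25 of 28 members held a KRAB motif, yet the median log2 count ratio was -0.038. In that run 12 members were above 0 and 16 below, and by TPM the median was 0.029. The highest count ratio of the run was that of ZNF773, with 357 counts with DMSO and 564 with FIN56. The lowest was that of ZNF772, with 412 and 283. The 14 other expressed genes in the interval from ZNF264 to ZNF446 had a median of -0.052, with 6 above 0 and 8 below, near that of the members. The 6 others in the interval from ZNF628 to ZNF444 had a median of -0.013. KRAB genes of different runs on the same chromosome thus had different medians, and the difference was not tested.

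**Figure D4:**
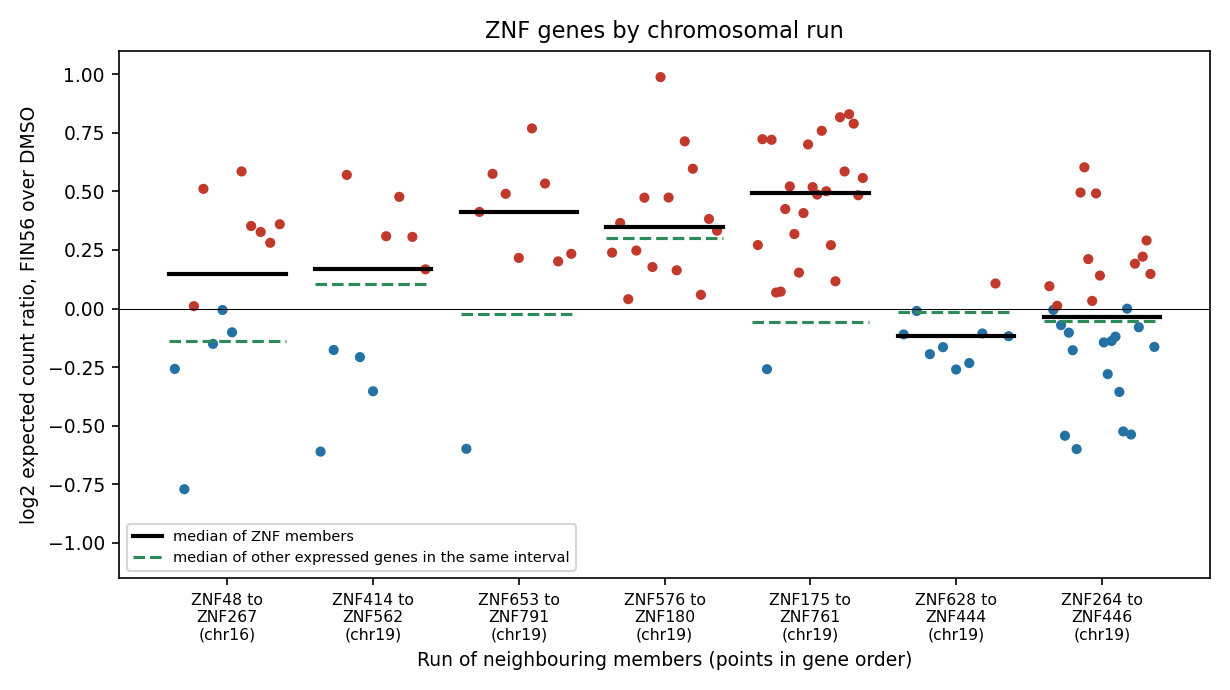
Log2 expected count ratio, FIN56 over DMSO, of the ZNF genes in the 7 runs of at least 8 neighbouring members, with points in gene order within each run, red at or above 0 and blue below. Black lines are member medians, from -0.12 in the run from ZNF628 to ZNF444 to 0.49 in that from ZNF175 to ZNF761, and dashed green lines are medians of the other expressed genes in the same interval.

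Genes made by tandem duplication can share promoter sequence, and RefSeq promoters, from 250 bases before to 50 after the start on GRCh38.p14, were matched to 242 of the members. For each run, the word of 8 letters that was most frequent there relative to all 27305 promoters was taken, on either strand, if it occurred in at least 4 promoters and 25% of those of the run and in under 1% of all promoters. Each word was chosen after its counts were seen. In the run from ZNF576 to ZNF180, 7 of 13 promoters held GTAGTCCA, which 0.663% of all promoters hold. The sequences below are shown because their genes lie in the run whose members all had a ratio above 1. The intervals of ZNF283 and ZNF235 include 1. Capitals mark that word or its reverse complement, and each sequence is printed in the direction of transcription, before the annotated gene.
ZNF283, plus strand, chr19:43827235-43827284: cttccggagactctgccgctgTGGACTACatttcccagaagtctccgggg
ZNF230, plus strand, chr19:44002827-44002876: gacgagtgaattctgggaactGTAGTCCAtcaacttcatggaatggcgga
ZNF224, plus strand, chr19:44094250-44094299: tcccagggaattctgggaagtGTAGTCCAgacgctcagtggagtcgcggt
ZNF235, minus strand, chr19:44305076-44305125: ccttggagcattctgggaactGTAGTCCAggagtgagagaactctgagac

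Within the run, promoters with the word belonged to genes with a median log2 count ratio of 0.38 and those without it to genes with 0.29. In several of these stretches the letters beside the word include TTCCCAGAA, part of the known ZNF143 site, or its reverse complement. It was in 20 of the 242 member promoters, or 8.26%, in 0.992% of the promoters of 8969 other expressed genes and in 1.09% of all promoters. Members with it had a median log2 count ratio of 0.17 and members without it 0.15. It was in 3 of 16 promoters of members at a ratio of 1.5 or more and in 1 of 7 at 1/1.5 or less.

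In the run from ZNF264 to ZNF446, whose members went both ways, 8 of 25 promoters held TACATTAC, which 0.418% of all promoters hold. Promoters with the word belonged to genes with a median log2 count ratio of -0.052 and those without it to genes with 0.012. The 4 sequences below are shown because their genes hold the same word and lay on both sides of a ratio of 1, and capitals mark the word.
ZNF17, plus strand, chr19:57411031-57411080: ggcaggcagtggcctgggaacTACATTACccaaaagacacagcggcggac
ZNF749, plus strand, chr19:57435160-57435209: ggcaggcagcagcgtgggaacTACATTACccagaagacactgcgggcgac
ZNF772, minus strand, chr19:57477623-57477672: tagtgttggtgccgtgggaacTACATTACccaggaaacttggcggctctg
ZNF416, minus strand, chr19:57578979-57579028: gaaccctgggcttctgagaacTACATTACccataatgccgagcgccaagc
ZNF416 had 382 counts with DMSO and 559 with FIN56, whereas ZNF772 had 412 and 283. ZNF17 had 521 counts with DMSO and 505 with FIN56, and ZNF749 had 677 and 623. The interval of ZNF17 includes a ratio of 1. The genes of these 4 promoters share the word and did not share a direction.

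In the run from ZNF175 to ZNF761, 5 of 19 promoters held AAGCGGAT, among them those of ZNF816 and ZNF845, and 0.363% of all promoters hold it. Promoters with the word belonged to genes with a median log2 count ratio of 0.56 and those without it to genes with 0.45. In the run from ZNF653 to ZNF791, 4 of 9 promoters held TATCCAAT, which 0.623% of all promoters hold and which contains the CCAAT box. Of the 3 stretches shown, with the word in capitals, those of ZNF700 and ZNF20 resemble each other and that of ZNF823 does not resemble them. Promoters with the word belonged to genes with a median log2 count ratio of 0.49 and those without it to genes with 0.23.
ZNF823, minus strand, chr19:11739023-11739072: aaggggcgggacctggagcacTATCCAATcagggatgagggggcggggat
ZNF700, plus strand, chr19:11924884-11924933: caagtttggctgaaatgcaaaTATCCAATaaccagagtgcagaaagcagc
ZNF20, minus strand, chr19:12140527-12140576: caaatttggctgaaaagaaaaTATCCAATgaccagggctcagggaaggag

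The core CCGGAAG of ETS factors was more frequent in member promoters than in those of other expressed genes. Searched on both strands, it was in 106 of 242 member promoters, or 43.8%, in 20.3% of the promoters of other expressed genes and in 10.7% of all promoters. Among members at a ratio of 1.5 or more, 10 of 16 promoters held it, and among those at 1/1.5 or less, 2 of 7 did. The median log2 count ratio was 0.18 for members with the core and 0.13 for those without. It occurs at both ends of the order, as the following stretches of ZNF239, among the 12 highest, and ZNF302 and ZNF548, among the 12 lowest, show with the core or its reverse complement in capitals.
ZNF239, minus strand, chr10:43574628-43574677: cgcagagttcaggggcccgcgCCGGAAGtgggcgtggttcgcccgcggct
ZNF302, plus strand, chr19:34677589-34677638: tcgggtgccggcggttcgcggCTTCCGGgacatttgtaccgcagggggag
ZNF548, plus strand, chr19:57389718-57389767: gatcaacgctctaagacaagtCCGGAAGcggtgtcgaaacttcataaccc

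Further motifs were searched in the same way. The GC box GGGCGG was in 68.6% of member promoters and in 71.5% of those of other expressed genes. The CCAAT box, searched as those letters, was in 45.9% and 37.0%. The TATA box TATAAA was in 3.31% and 5.42%, and the cyclic AMP response element TGACGTCA in 6.20% and 3.36%. The core TGACNNNGC of the antioxidant response element was in 14.9% and 15.3%. A match of letters is not a bound site, and no binding was measured.

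Counts and TPM parted company in some members. The log2 TPM ratio differed from the log2 count ratio by at least 0.4 in 10 members, or 3.50%, beside 1.37% of all genes. The 2 log2 ratios had opposite signs in 34 of 286 members and in 1182 of 12416 genes. ZNF226 had 8.02 TPM with DMSO and 19.31 TPM with FIN56, a TPM ratio of 2.41, beside a count ratio of 1.64. ZNF577 had 2.20 and 2.17 TPM, a TPM ratio of 0.986, beside a count ratio of 1.65, so its direction turned. ZNF264 had 1652 counts with DMSO and 1837 with FIN56 but 10.29 and 7.05 TPM. In such genes the effective length, which follows the isoforms assigned in each library, differed between the libraries. The files hold no isoform values, so which isoforms differed was not tested.

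**Figure D5:**
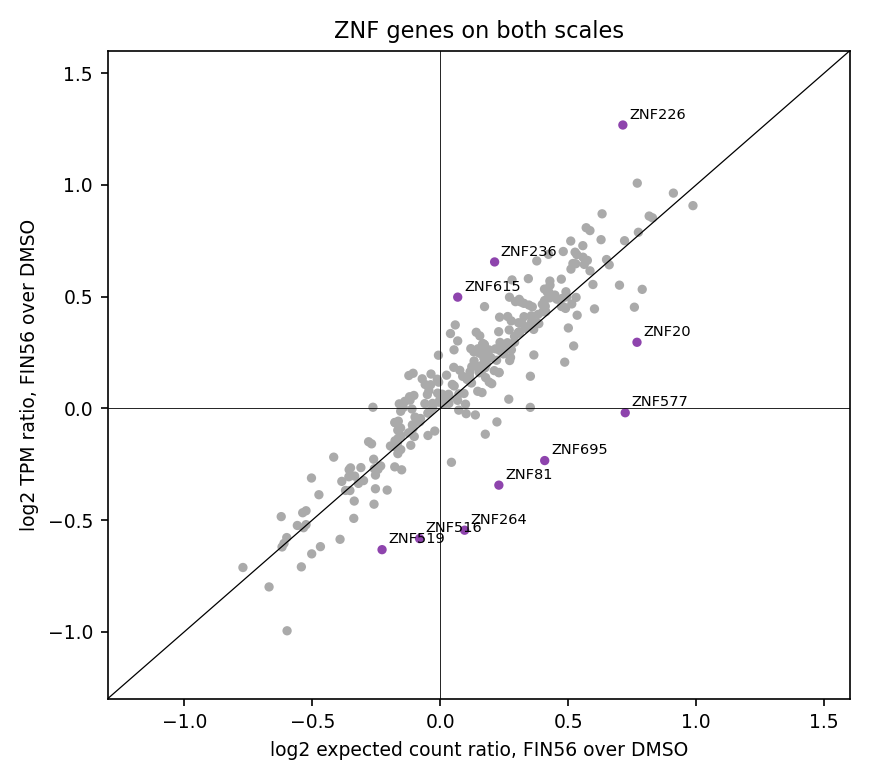
Log2 TPM ratio (vertical) against log2 expected count ratio (horizontal), FIN56 over DMSO, for the 286 ZNF genes, with the line of equal values. The 10 named genes (purple) differ by at least 0.4 between the scales, and ZNF577 lies at 0.72 by counts and -0.020 by TPM.

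The partners of KRAB zinc finger proteins were found on both sides of a ratio of 1. Of 27 listed genes of the TRIM28 corepressor, the HUSH complex and associated chromatin enzymes, 1 was at a count ratio of 1.5 or more, none was at 1/1.5 or less, beside 2.82% and 8.56% of all genes, and the median log2 count ratio was 0.031. That 1 gene was CBX5, the gene of HP1 alpha, with 12771 counts with DMSO and 19946 with FIN56, a ratio at the threshold itself. TRIM28 had 15721 and 18152 counts, a ratio of 1.11. SETDB1, the histone methyltransferase that TRIM28 recruits, had 2597 and 2761 counts, a ratio of 1.02. TASOR2 had 8057 and 10934 counts, a ratio of 1.304, whereas TASOR, of the HUSH complex, had 8213 and 7405, a ratio of 0.866. EHMT1 had 7042 and 8905 counts, a ratio of 1.22, and EHMT2, its partner in methylation of histone H3, had 5556 and 4505, a ratio of 0.779. Intervals lay above 1 in 9 of the 27 genes and below 1 in 9, beside 37.7% and 37.5% of all genes, so these counts are near those of genes at large.

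Other zinc finger families were compared by their medians, and no difference between families was tested. The 30 ZBTB genes at 2 TPM or more with DMSO had a median log2 count ratio of -0.15, none at 1.5 or more and 3 at 1/1.5 or less, beside 2.82% and 8.56% of all genes. The 14 ZSCAN and ZKSCAN genes had a median of 0.078 and the 18 KLF and SP genes 0.079, with none past either threshold. By TPM the medians were -0.043, 0.11 and 0.17, in the same order. ZNF rows below 2 TPM with DMSO that had at least 10 counts in each library numbered 73, and their median log2 count ratio was 0.24. These rows were chosen by a low DMSO value, which also divides each ratio, so their median supports nothing about the members.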

How the data were processed

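The members and lists were chosen with earlier results of these data known. The study's methods, written for tumor samples, name STAR 2.6.1a, RSEM 1.3.1 and, for the rlog values, DESeq2 1.26.0, and the submitters' processing notes list the same tools. Per the labels and values, the authors left the expected counts without normalization. The deposited TPM are scaled to transcript length and a fixed sum. The deposited FPKM are scaled to transcript length and library size. The deposited rlog table has a log2 unit and is shrunk between libraries. Ratios of expected counts were divided by library totals. Alternatives used edgeR 4.0.16 (TMM), DESeq2 1.42.0 (size factors), TPM, FPKM, rlog, other minimums and another threshold. Intervals were exact Clopper-Pearson at 95% on rounded counts (scipy 1.17.1) and were tested on simulated data. Positions, transcripts and proteins came from GENCODE 44 on GRCh38, and domain patterns were adjusted on protein sequences alone. Promoters came from RefSeq. Genes named were the 12 highest and 12 lowest count ratios among members with at least 100 counts together, the 5 most abundant by mean TPM, and genes of the role and corepressor lists. The ZNF genes just inside and just outside the minimum of 2 TPM were named by their DMSO level. ZNF283, ZNF230, ZNF224, ZNF235, ZNF17, ZNF749, ZNF416, ZNF700, ZNF823, ZNF773, ZNF629, ZNF480, ZNF614, ZNF615, ZNF264 and ZNF142 were named after their values were seen.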

Additional observations from a re-analysis of the deposited data

How the results depend on the processing

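No paired analysis was possible because there was 1 library per group. The median log2 count ratio of the members stayed above 0 in every alternative run, from 0.065 with rlog to 0.19 with DESeq2 size factors. The number of members at the thresholds depended on the setting. With library totals 7 members were lower, beside 8.56% of all genes. With DESeq2 size factors 2 were, beside 7.68%, and with FPKM 12, beside 8.34%. With rlog values, which are shrunk between libraries, 0 were higher and 0 lower, beside 0.0482% and 0.129% of all genes. With a minimum of 5 TPM 8 were higher and 4 lower, beside 2.09% and 6.95% of all genes at that minimum. With a minimum of 2 TPM set on FIN56 4 were lower, beside 6.6%. With no minimum, 46 of 382 ZNF rows were higher and 18 lower, beside 13.8% and 17.2% of all genes. The higher share of the ZNF rows was then below that of all genes, not above it. With whole expected counts only, which leaves 154 members, 9 were higher and 4 lower, beside 2.74% and 8.09%. At a threshold of 2 there were 0 and 0, beside 0.474% and 2.48%. Further alternatives were chosen after seeing the data. By TPM, 19 were higher and 5 lower with whole counts only, beside 4.06% and 7.12%. At a threshold of 2 there were 2 and 0, beside 0.563% and 2.27%, and with a pseudocount of 1 TPM 16 and 2, beside 2.84% and 5.62%. The median of the run from ZNF414 to ZNF562, 0.17 by counts, moved to 0.29 by TPM. Over the 4 members of that run with whole counts, it turned to -0.022 by counts. The median of the run from ZNF264 to ZNF446 turned to 0.029 by TPM. ZNF577 turned to -0.020 by TPM and -0.050 by FPKM. Where neither fewer genes, shrinkage nor the threshold itself accounts for a change, the cause was not tested. With 102 counts for the weakest member, counting error alone limits its ratio, and differences between cultures were not measured.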
